A study of Mus musculus with 11 samples.

Results

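The 9 genes of phosphate and bicarbonate reabsorption described here were examined in the S3 segment, the straight last part of the kidney proximal tubule, of mice with and without Tamm-Horsfall protein. They were Slc34a1, Slc34a3, Slc20a1 and Slc20a2, which carry phosphate, the scaffold gene Pdzk1, and Slc9a3, Slc4a4, Car2 and Car4, which serve bicarbonate recovery. Members were chosen by name, each through the probe set that the platform annotation gives that symbol alone, and of several such probe sets the one with the highest mean over all arrays. Each of 8 members had 1 such probe set, out of 22180 genes measured in this way. The only probe set naming Pdzk1 also names a neighbouring gene, so Pdzk1 has no value here. The mice were of strain 129/SvEv. The 6 wild-type (WT) arrays were compared with 5 arrays of genotype THP -/-, which lacks the protein also called uromodulin (gene Umod). Batch 1 held 5 wild-type and 3 knockout arrays, and batch 2 held 1 wild-type and 2 knockout arrays. Age, sex and treatment are not in the labels, and neither is a statement that arrays came from separate mice, so p-values measure only the spread between arrays.

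The proximal tubule takes back most of the phosphate and bicarbonate that the glomerulus filters. Phosphate enters the cell through sodium-coupled carriers of the brush border, which PDZ scaffold proteins hold there and which parathyroid hormone and FGF23 remove. For bicarbonate, the exchanger NHE3 (Slc9a3) puts protons into the lumen, the membrane-bound carbonic anhydrase IV (Car4) turns luminal bicarbonate into carbon dioxide, cytosolic carbonic anhydrase II (Car2) turns it back, and the cotransporter NBCe1 (Slc4a4) sends bicarbonate to the blood. These steps are strongest in the convoluted S1 and S2 segments that lie upstream of S3.

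Values are log2 signals per probe set, on which 1 unit is a doubling of signal. Array medians lay between 3.85 and 4.01. Umod, the targeted gene, read 5.27 to 6.74 in wild type and 3.68 to 5.27 in knockout, and no source used here says whether its probe set lies in the deleted part. All 10 measured S3 markers had a mean above the median probe set, and their mean signal ran from 7.74 to 8.98 in wild type and from 8.38 to 9.50 in knockout. The 9 measured S1 and S2 markers averaged 5.20 to 6.28 in wild type and 4.84 to 6.24 in knockout. Endothelial and stromal markers averaged 4.20 to 4.35 and 4.14 to 4.54, and immune and blood cell markers 4.27 to 4.57 and 4.41 to 4.66. Of the sex markers, Xist read 2.35 to 2.96 and the Y-linked Eif2s3y 4.50 to 5.21 over all arrays, so no array stood apart in them.

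Several arrays stood apart in the marker genes. The S1 and S2 marker mean was 5.20 on wild-type replicate 5 and 4.84 on knockout replicate 2, against 5.61 or more on each of the other 9 arrays. These 2 arrays were not apart in S3 markers, which averaged 8.92 and 9.21 on them. Wild-type replicate 4 had the lowest S3 marker mean, 7.74, against 8.38 or more on each other array. Knockout replicate 4 had the highest means of thick ascending limb (6.70), distal and principal cell (6.14) and intercalated cell markers (4.69), where the other arrays lay between 5.11 and 5.86, between 4.37 and 5.10, and between 3.73 and 4.15. In such samples fewer cells of a type and less RNA per cell cannot be told apart. Differences of the members are therefore given with and without the 2 arrays low in S1 and S2 markers, and once without knockout replicate 4 as well. Wild-type replicate 4 was kept in those fits and was left out only in a fit of its own.

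Slc34a1 encodes NaPi-IIa, the main sodium-phosphate cotransporter of the adult brush border. It gave a wild-type mean of 11.93 ± 0.52 (SD, n = 6) and a knockout mean of 11.79 ± 0.64 (SD, n = 5). The wild-type arrays ran from 10.90 through a median of 12.07 to 12.36, and knockout replicates 1 to 5 read 12.26, 10.73, 11.69, 12.02 and 12.25. The groups overlapped almost fully, and the 2 low values were those of wild-type replicate 5 and knockout replicate 2. The batch-adjusted log2 difference was -0.22 ± 0.32 (SE), with a 95% interval from -0.94 to 0.49. It was -0.36 within batch 1 and 0.17 within batch 2, and -0.08 ± 0.17 without the 2 low arrays.

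Slc34a3 encodes NaPi-IIc, the second renal cotransporter of the same family. Its signal lay below the array's own median on 10 of the 11 arrays and was not shown to be above background. Wild-type arrays ran from 3.35 through 3.70 to 4.11, and knockout replicates 1 to 5 read 3.77, 3.51, 3.66, 3.46 and 2.89. The groups overlapped, with the lowest value on knockout replicate 5. The log2 difference was -0.15 ± 0.14 (SE), from -0.46 to 0.16, and -0.13 ± 0.17 without the 2 arrays low in S1 and S2 markers.

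Slc20a1 and Slc20a2 encode PiT-1 and PiT-2, phosphate carriers of another family, found in most cells. Slc20a1 ran from 3.55 through 3.81 to 4.29 in wild type and read 4.41, 3.87, 4.48, 4.06 and 3.98 in knockout replicates 1 to 5. Slc20a2 ran from 4.67 through 5.17 to 5.20 in wild type and read 5.24, 5.17, 5.52, 5.90 and 5.0 in knockout. In both genes the 2 highest arrays were knockout arrays and the groups overlapped. Their log2 differences were 0.35 ± 0.18 (SE), from -0.06 to 0.75, and 0.30 ± 0.18 (SE), from -0.10 to 0.70. They were above 0 within each batch, at 0.45 and 0.04 for Slc20a1 and at 0.30 and 0.28 for Slc20a2. Without the 2 arrays low in S1 and S2 markers they were 0.40 ± 0.19 and 0.37 ± 0.22. Slc20a1 was above the array's own median on 7 of the 11 arrays, so its signal was near the limit of what these arrays show.

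Slc9a3 (NHE3) varied most of the 8 genes. Wild-type arrays ran from 5.20 through 7.17 to 7.59, and knockout replicates 1 to 5 read 7.22, 4.82, 6.77, 7.59 and 7.75. Apart from wild-type replicate 5 and knockout replicate 2, no array was below 6.77. The log2 difference was -0.31 ± 0.52 (SE), from -1.46 to 0.85. It was -0.59 within batch 1 and 0.48 within batch 2, and -0.02 ± 0.20 without the 2 low arrays.

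Slc4a4 (NBCe1) ran from 7.44 through 8.65 to 8.77 in wild type and read 8.20, 7.14, 8.16, 8.54 and 8.77 in knockout replicates 1 to 5. The lowest arrays were again wild-type replicate 5 and knockout replicate 2, and the 3 knockout arrays of batch 1 each lay below at least 4 of the 5 wild-type arrays of that batch. The log2 difference was -0.44 ± 0.28 (SE), from -1.06 to 0.18. It was -0.56 within batch 1 and -0.12 within batch 2. Without the 2 low arrays it was -0.34 ± 0.13 (SE), at an unadjusted limma p of 0.0259 and an adjusted p of 0.771. Those arrays were chosen after the data were seen and hold this gene's lowest values, so this p cannot be read as a test.

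Car2 had the largest fitted difference of the 8 genes. Wild-type arrays ran from 3.74 through 5.18 to 6.11, and knockout replicates 1 to 5 read 4.60, 3.49, 4.75, 5.70 and 4.72. The groups overlapped through wild-type replicate 5, which lay below 4 knockout arrays, and through knockout replicate 4, the array highest in markers of other segments. Car2 is also abundant in intercalated cells. Their markers averaged 3.73 to 4.15 in wild type and 3.92 to 4.69 in knockout, and 7 of the 10 had a mean above the median probe set. Of the single markers, Foxi1 read 5.16 to 5.67 in knockout and up to 6.17 in wild type. On knockout replicate 4 Atp6v1b1 read 6.21, Aqp6 5.89, Atp6v1g3 5.54 and Slc4a9 5.14, against at most 5.32, 4.82, 4.16 and 5.12 on the other arrays. Slc4a1 read 5.02 there, Kit 4.33 and Slc26a4 3.92, against at most 4.88, 4.28 and 4.01 on the other arrays. Atp6v0d2 and Slc26a7 were the lowest of the list, at no more than 2.51 and 2.78. The part of other cells in the Car2 signal was not tested. The log2 difference was -0.72 ± 0.36 (SE), from -1.53 to 0.08, a signal 1.65-fold lower in knockout. It was -0.66 within batch 1 and -0.90 within batch 2. Without wild-type replicate 5 and knockout replicate 2 it was -0.68 ± 0.23 (SE), at an unadjusted limma p of 0.0161 and an adjusted p of 0.769. Without knockout replicate 4 as well it was -0.79 ± 0.21 (SE), with a limma adjusted p of 0.826. These arrays were chosen after the data were seen, and the first 2 hold the lowest values of Car2, so these p-values cannot be read as tests.

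Car4 ran from 7.11 through 8.89 to 9.10 in wild type and read 8.07, 6.72, 8.71, 9.30 and 9.05 in knockout replicates 1 to 5. Wild-type replicate 5 and knockout replicate 2 were lowest, and the highest array was knockout replicate 4. The log2 difference was -0.48 ± 0.45 (SE), from -1.47 to 0.51. It was -0.75 within batch 1 and 0.28 within batch 2, and -0.28 ± 0.21 without the 2 low arrays.

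**Figure D1:**
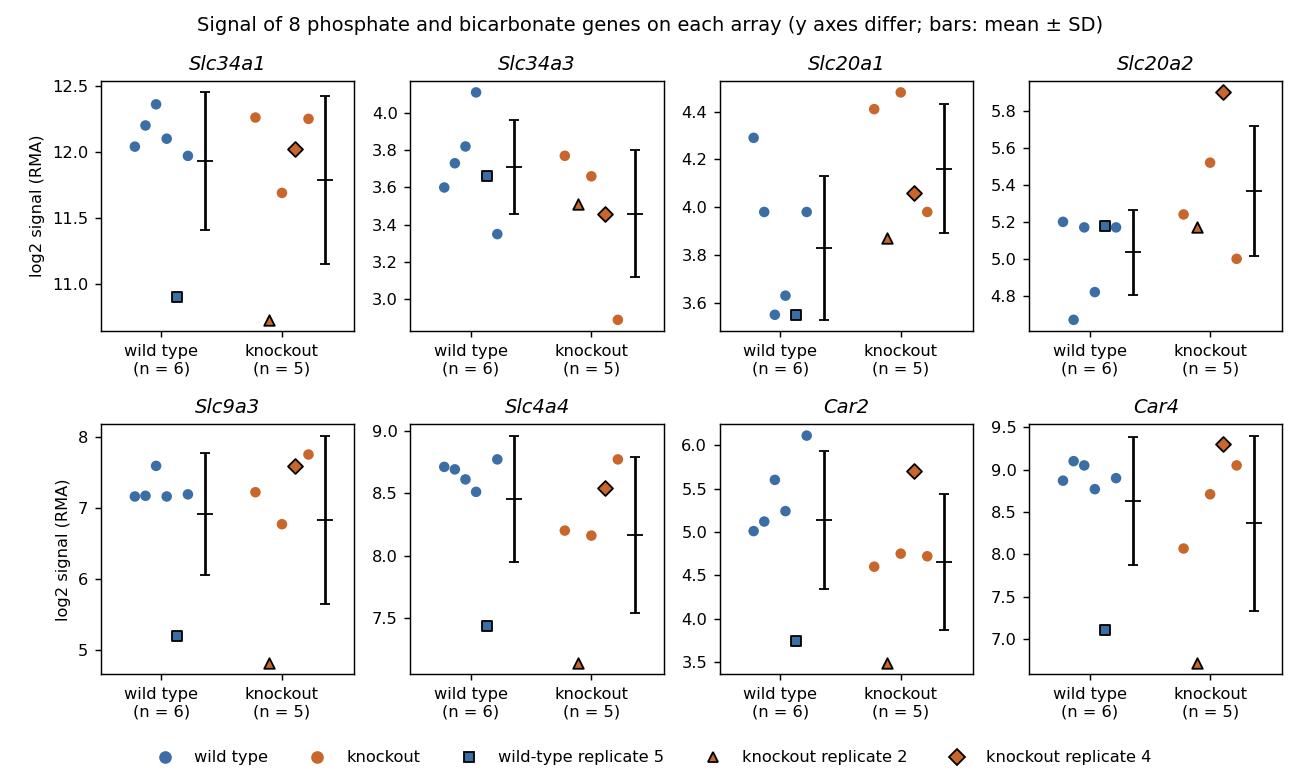
Log2 signal of 8 genes on each array, wild type (blue, n = 6) and knockout (orange, n = 5), with the mean ± SD beside each group and a separate y axis for each gene. Wild-type replicate 5 (square) and knockout replicate 2 (triangle) lie below the other arrays in Slc34a1, Slc9a3, Slc4a4, Car2 and Car4, but not in Slc34a3, Slc20a1 or Slc20a2.

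No difference between genotypes passed the test in these genes. With limma, 0 of the 8 passed an adjusted p of 0.05 (Benjamini-Hochberg over 41345 probe sets), where 0% of all probe sets passed, and the smallest adjusted p was 0.823, for Car2. At an unadjusted p of 0.05, 0 of the 8 passed, against 6.16% of probe sets and 5.64% of the 22180 genes. In 0 of the 8 did the groups fail to overlap, against 0.627% of genes, 0.433% higher and 0.194% lower in knockout. The 2 batches gave the same sign in 5 of the 8 genes, against 54.3% of all genes. Differences above 0 were found in 2 of the 8 genes, against 53.4% of all genes, and the median difference was -0.26 against 0.01. Exact two-sided tests that permute genotype inside each batch gave p = 0.125 for Car2, 0.101 for Slc20a1, 0.179 for Slc20a2, 0.202 for Slc4a4, 0.321 for Slc34a3, 0.369 for Car4, 0.560 for Slc34a1 and 0.667 for Slc9a3, where the smallest p that 168 arrangements allow is 0.00595. The 95% intervals reach down to 0.348-fold for Car2, 0.362-fold for Car4 and 0.364-fold for Slc9a3, so these data do not bound the difference in these genes closely. Without all 3 arrays that stood apart, the log2 differences were -0.07 for Slc34a1, -0.20 for Slc34a3, 0.42 for Slc20a1, 0.26 for Slc20a2, -0.05 for Slc9a3, -0.33 for Slc4a4, -0.79 for Car2 and -0.36 for Car4. Beside these values, 8 of the 9 S1 and S2 markers had lower signal in knockout (median log2 difference -0.30) and 10 of 10 S3 markers higher signal (median 0.44). Their part in the members' differences was not tested.

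**Figure D2:**
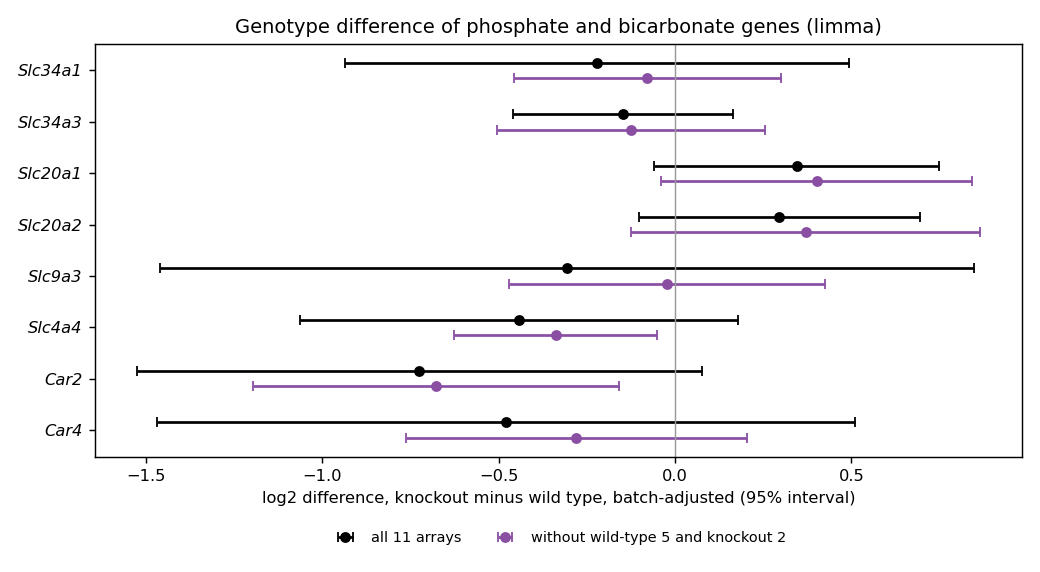
Batch-adjusted log2 difference between knockout and wild type from limma, with 95% intervals, for all 11 arrays (black) and without wild-type replicate 5 and knockout replicate 2 (purple). With all arrays each interval includes 0, from -0.72 for Car2 to 0.35 for Slc20a1. Without the 2 arrays the intervals of Slc34a1, Slc9a3, Slc4a4, Car2 and Car4 are narrower, and those of Slc4a4 (-0.63 to -0.05) and Car2 (-1.20 to -0.16) lie below 0. The 2 arrays were chosen after the data were seen and hold the lowest values of these 5 genes. Narrower intervals follow from leaving them out and are no test of a difference.

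In wild type the probe sets fell into an order from Slc34a1 to Slc34a3. Signals of different probe sets depend on the probes' own affinity as well as on RNA and are not scaled per transcript length, so this is an order of log2 signals and not of transcripts. Slc34a1 lay at percentile 99.8 of all probe sets and was above each other gene on all 6 arrays, with no overlap with Car4, the next gene. Car4 (8.63 ± 0.76, SD, n = 6) and Slc4a4 (8.46 ± 0.51) overlapped, as did Slc4a4 and Slc9a3 (6.91 ± 0.86) through wild-type replicate 5. Slc9a3 lay at percentile 95.2 and overlapped Car2 (5.14 ± 0.79). Car2 and Slc20a2 (5.04 ± 0.23) could not be ordered, since Car2 was higher on 4 of 6 arrays and lower in the mean of batch 1. Slc20a2 lay above Slc20a1 (3.83 ± 0.30) without overlap, and Slc20a1 and Slc34a3 (3.71 ± 0.25) overlapped at percentiles 46.6 and 43.3.

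**Figure D3:**
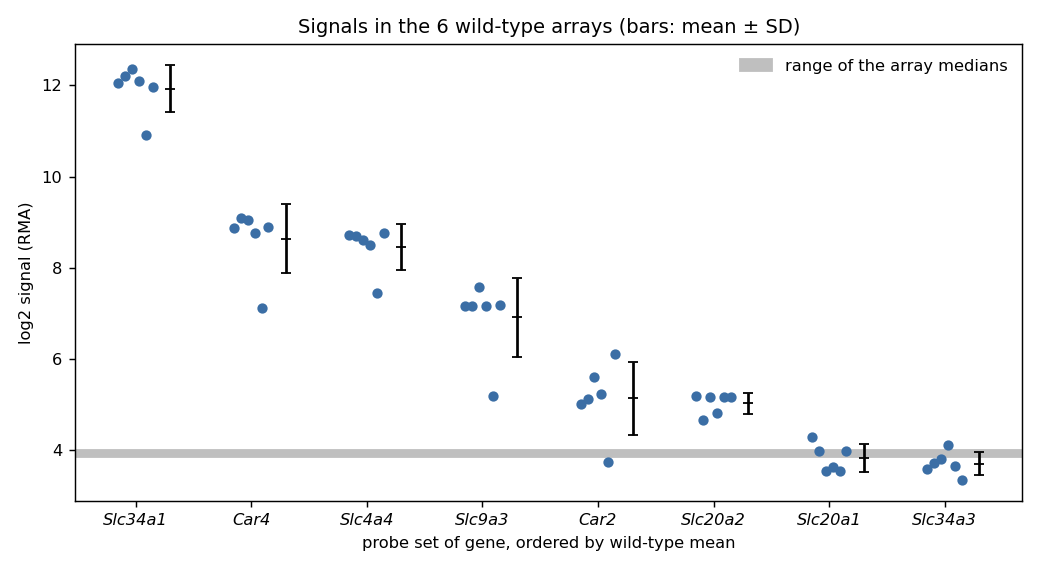
Log2 signals of the 8 probe sets on the 6 wild-type arrays, ordered by their mean, with the mean ± SD beside the points and the range of the array medians (3.85 to 4.01) in grey. Slc34a1 lies above the other genes, and Slc20a1 and Slc34a3 lie around the array medians.

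The 5 genes Slc34a1, Slc9a3, Slc4a4, Car2 and Car4 shared their 2 lowest arrays. Wild-type replicate 5 and knockout replicate 2 were below each of the other 9 arrays in 5 of the 8 members, against 3% of the 22180 genes and 4.35% of the 12711 genes with a mean above the median probe set. Of the 9 measured S1 and S2 markers, 4 had this pattern (Slc7a7, Slc7a8, Slc22a6 and Gatm). The rest of that list did not, so its low mean on these arrays is not shared by each marker. Against the median of the other 9 arrays, Slc9a3 differed by -1.99 and -2.37 on these 2 arrays, Car4 by -1.79 and -2.18, Car2 by -1.38 and -1.63, Slc34a1 by -1.20 and -1.37, and Slc4a4 by -1.17 and -1.47. Slc34a3 differed by 0.00 and -0.15, Slc20a1 by -0.43 and -0.11, and Slc20a2 by 0.01 and 0.00. The 2 arrays share neither genotype nor replicate number, and both belong to batch 1. This pattern was noticed in the data and is given as a description.

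**Figure D4:**
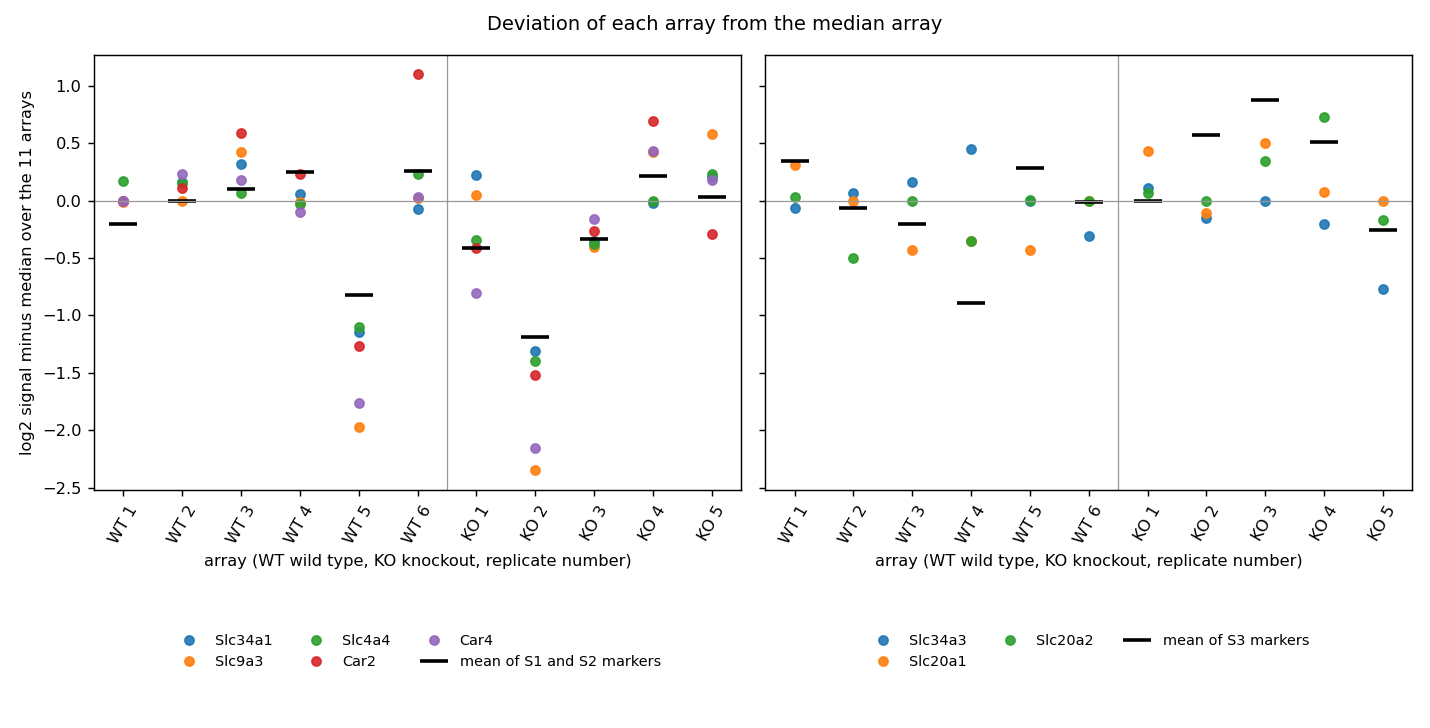
Log2 signal of each array minus the median over the 11 arrays, for 5 genes with the mean of S1 and S2 markers (left, black bars) and for 3 genes with the mean of S3 markers (right, black bars). On wild-type replicate 5 and knockout replicate 2 the 5 genes at left and the mean of the S1 and S2 markers lie lowest, by up to 2.37 below the median of the other arrays for Slc9a3.

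The sequences before the start sites of these genes are shown because 4 of the 5 genes that were low together have an entry in the promoter table, and Slc20a1, which was not low on those arrays, serves as a comparison. Each is the 150 bases upstream of an annotated start, 5′ to 3′ on the plus strand, from RefSeq on build GRCm38.p6. They are chr13:55399498-55399647 for Slc34a1, chr13:74121263-74121412 for Slc9a3, chr5:89027816-89027965 for 1 of the 2 listed starts of Slc4a4, chr11:84957604-84957753 for Car4 and chr2:129198623-129198772 for 1 of the 2 listed starts of Slc20a1. Capitals mark GTTAAT, a half-site of the proximal tubule transcription factor HNF1, the GC box GGGCGG and the E-box CACGTG, searched on both strands. No 2 of these motifs overlap in the windows shown.
Slc34a1: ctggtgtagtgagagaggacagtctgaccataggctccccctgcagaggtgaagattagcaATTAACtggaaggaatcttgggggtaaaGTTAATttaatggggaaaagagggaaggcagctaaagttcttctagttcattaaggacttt
Slc9a3: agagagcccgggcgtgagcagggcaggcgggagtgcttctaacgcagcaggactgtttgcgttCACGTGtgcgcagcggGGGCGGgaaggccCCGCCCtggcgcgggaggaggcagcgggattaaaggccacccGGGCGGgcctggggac
Slc4a4: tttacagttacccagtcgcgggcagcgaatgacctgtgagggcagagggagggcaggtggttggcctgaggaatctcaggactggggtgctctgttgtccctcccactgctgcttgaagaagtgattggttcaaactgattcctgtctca
Car4: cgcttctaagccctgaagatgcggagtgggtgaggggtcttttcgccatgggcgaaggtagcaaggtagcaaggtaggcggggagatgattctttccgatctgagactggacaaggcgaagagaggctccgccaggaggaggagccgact
Slc20a1: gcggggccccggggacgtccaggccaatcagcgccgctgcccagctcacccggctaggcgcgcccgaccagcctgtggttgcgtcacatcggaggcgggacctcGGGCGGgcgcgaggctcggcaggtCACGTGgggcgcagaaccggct

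The 5 windows do not share a marked motif. Slc34a1 alone holds the HNF1 half-site, at 2 places that start at -89 and -61 from the start site, and 3.71% of 32851 windows of this length hold it at least once. Slc9a3 holds 3 GC boxes and 1 E-box, and Slc20a1 holds 1 of each, where 28.6% of all windows hold a GC box and 4.30% an E-box. The windows of Car4 and of this start of Slc4a4 hold none of the 3, while the window of the other listed Slc4a4 start, with 83.3% G and C, holds 1 GC box. The other listed Slc20a1 start, with 53.3% G and C, also holds 1 GC box. Slc34a3, another gene not low on those arrays, has a window that is not shown, with 58.7% G and C and none of the 3 motifs. The G and C content was 44.0% for Slc34a1, 55.3% for Slc4a4, 58.7% for Car4, 72.0% for Slc9a3 and 76.0% for Slc20a1. A match describes letters only, and the array does not tell which start a transcript used.

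How far the members followed the S1 and S2 markers on the remaining arrays was examined over 16 relations, 8 genes with each of the S1 and S2 mean and the S3 mean. Since 2 arrays lay apart in the S1 and S2 markers, no correlation with that mean over all 11 is given but for Slc20a1. Car2 had the closest relation to the S1 and S2 mean among the 5 genes that were low together, with Pearson's r = 0.79 over 9 arrays (exact permutation p = 0.0126, adjusted p = 0.094) and Spearman's rho = 0.85 (exact permutation p = 0.00607, adjusted p = 0.033). Its r was 0.66 without the 2 arrays farthest from the median and 0.86 over the 6 arrays of batch 1, where the adjusted exact permutation p was 0.141. The correlations over 9 arrays pool both batches, and all of them pool both genotypes, which the permutations did not keep apart. The batch-adjusted difference, knockout minus wild type, was -0.41 for the S1 and S2 mean and 0.47 for the S3 mean. Whether the relations hold within a genotype was not tested. In the fit across all probe sets the Car2 signal was 1.03 higher in batch 2, with a limma adjusted p of 0.705. For Car4 r was 0.68 (exact permutation p = 0.0283, adjusted p = 0.094) and rho 0.46, but r was 0.06 without the 2 farthest arrays, so it rests on those. For Slc4a4, Slc9a3 and Slc34a1 r was 0.65, 0.46 and 0.16, with adjusted exact permutation p of 0.153, 0.436 and 0.885. Without the 2 farthest arrays these r were -0.43, 0.09 and -0.20, so none of these 3 relations held. With the S3 mean Slc34a1 had r = -0.64 over 9 arrays (exact permutation p = 0.0667, adjusted p = 0.153). This r was -0.71 without the 2 farthest arrays and -0.64 over the 6 arrays of batch 1, where the adjusted exact permutation p was 0.284. Over all 11 arrays it was -0.52, with an adjusted random permutation p of 0.234.

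Slc20a1 ran opposite to the S1 and S2 mean only without the 2 arrays low in those markers. Over all 11 arrays its r with that mean was -0.03, and over the 8 arrays of batch 1 it was -0.06. Over the other 9 arrays Slc20a1 had r = -0.81 with the S1 and S2 mean (exact permutation p = 0.00997, adjusted p = 0.094; rho = -0.71) and r = 0.75 with the S3 mean (exact permutation p = 0.0195, adjusted p = 0.094; rho = 0.85, adjusted p = 0.033). Without the 2 farthest arrays these were -0.56 and 0.47, and over the 6 arrays of batch 1 -0.95 and 0.80, with adjusted exact permutation p of 0.141 and 0.167. Slc20a2 had r = -0.12 with the S1 and S2 mean (adjusted exact permutation p = 0.885), which was 0.21 without the 2 farthest arrays. It had r = 0.73 with the S3 mean (exact permutation p = 0.0295, adjusted p = 0.094; rho = 0.85, adjusted p = 0.033), 0.72 without the 2 farthest arrays and 0.73 in batch 1 (adjusted exact permutation p = 0.222). Over all 11 arrays the relations with the S3 mean were weaker. There r was 0.51 for Slc20a1 and 0.67 for Slc20a2, with adjusted random permutation p of 0.234 and 0.072. Their rho was 0.49 and 0.75, with adjusted random permutation p of 0.233 and 0.077. Without wild-type replicate 4 and knockout replicate 3, the 2 of the 11 arrays farthest from the S3 median, r was 0.10 and 0.56. Batch 2 held 3 arrays, too few for its own value. None of the Pearson correlations given above passed the adjustment over the 16 relations. With the S1 and S2 mean over all 11 arrays, those of Car2, Car4, Slc4a4, Slc9a3 and Slc34a1 did pass. They also passed over all 8 arrays of batch 1, but both sets include the 2 arrays low in those markers. Over these 8 arrays Slc34a3 passed with the S3 mean, at r = -0.90 (adjusted exact permutation p = 0.012). Arrays share their normalization with every gene on them.

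By pattern over the 11 arrays, the genes nearest to Slc9a3 were Slc13a3, a dicarboxylate carrier, Slc22a6, the organic anion transporter OAT1, and Car4. Likeness was measured as the root mean square difference of centred log2 signals, which was 0.21, 0.24 and 0.32 for them against a median of 0.95 over all genes. Slc22a6 is also 1 of the S1 and S2 markers. The genes nearest to Car4 were Ces1e, a carboxylesterase, Cyp2e1, a cytochrome P450, and Slc13a3, at 0.19, 0.24 and 0.24 against a median of 0.85. Ces1e belongs to a family of closely related genes whose probe sets can share signal. Each gene named here was lowest on wild-type replicate 5 and knockout replicate 2. Slc13a3 read 7.27 and 6.66 there and 8.82 to 9.55 elsewhere. Likeness without those arrays was not tested. The 2 medians lie near the SDs of Slc9a3 (0.96) and Car4 (0.85) themselves, which a gene of flat signal would come near.

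Carriers and scaffolds around the members included Slc9a3r1, which encodes NHERF1, the PDZ protein that binds NaPi-IIa and NHE3. It ran from 7.29 to 7.69 in wild type and from 7.48 to 8.01 in knockout, a log2 difference of 0.29 ± 0.13 (SE) at an unadjusted limma p of 0.0471 and an adjusted p of 0.809. It was the only 1 of 8 measured genes of its list at an unadjusted p under 0.05. The list's median was 0.24, with 6 genes above 0, where 53.4% of all genes were. Leaving out knockout replicate 3 gave a median of 0.08, and leaving out wild-type replicate 4 gave 0.13. Slc34a2 (NaPi-IIb, the intestinal form) and Ank, a pyrophosphate transporter, were at 0.33 ± 0.22 and -0.21 ± 0.17. Among the 19 measured hormone receptor and signalling genes 0 were at an unadjusted p under 0.05 and the median was 0.07. The 3 with the smallest p were Kl (α-Klotho, the co-receptor of FGF23) at -0.37 ± 0.27, Fgfr4 at 0.17 ± 0.13 and Fgfr1, a receptor that binds FGF23 with Klotho, at -0.19 ± 0.15.

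Among 15 measured proton and bicarbonate transporters 1 was higher and 1 lower at an unadjusted p under 0.05. The anion exchanger Slc4a2 was at 0.37 ± 0.14 (SE) and Slc26a1, a sulfate and anion exchanger of the basolateral membrane, at -1.14 ± 0.45, with limma adjusted p of 0.769 and 0.774. Slc26a1 ran from 5.57 to 7.84 in wild type and from 4.48 to 6.85 in knockout, lowest on wild-type replicate 5 and knockout replicate 2. The brush-border exchanger Slc9a8 (NHE8) was at 0.52 ± 0.27. Of 12 other carbonic anhydrases, Car5b, the mitochondrial form, was at 0.72 ± 0.32 (unadjusted p = 0.0488, limma adjusted p = 0.809), with Car6 at 0.31 ± 0.16 and Car1 at -0.19 ± 0.13, both with group means below the lowest array median.

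The vacuolar proton pump is the other route by which the tubule secretes protons. Of 18 measured subunits and accessory genes, 14 had a difference above 0 (median 0.15), where 53.4% of all genes did. At an unadjusted p under 0.05 there were 3, all higher in knockout, where 3.64% of genes were higher at that p. The list shares Atp6v1b1, Atp6v1g3 and Atp6v0d2 with the intercalated cell markers, and none of the 3 genes at that p is among these. The 3 genes at that p were Atp6v0b (0.53 ± 0.18, SE), Atp6v1a (0.73 ± 0.25) and Atp6ap1 (0.49 ± 0.17), each with a limma adjusted p of 0.758. The list's median was 0.05 without knockout replicate 4, the array high in markers of other segments, 0.07 without knockout replicate 3, 0.23 without knockout replicate 5 and 0.30 without knockout replicate 2. The part of other cells in these values was not tested. Among 15 regulators of NHE3 and NBCe1, the glucocorticoid receptor gene Nr3c1 was at -0.35 ± 0.13 (unadjusted p = 0.0199, limma adjusted p = 0.761), with the NBCe1-binding protein relative Ahcyl2 at -0.30 ± 0.15 and the kinase gene Stk39 at 0.46 ± 0.24. No list gene passed the adjusted threshold or had groups without overlap.

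**Figure D5:**
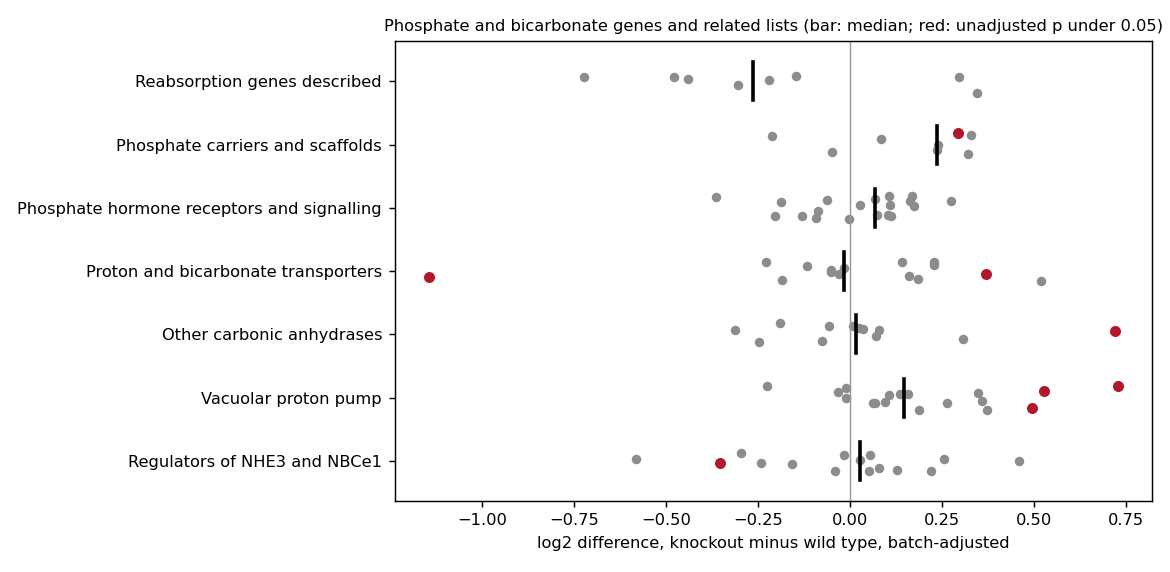
Batch-adjusted log2 differences (x axis) of the 8 measured reabsorption genes (top row) and of 6 lists of related genes, with each list's median as a bar and genes at an unadjusted p under 0.05 in red. The 8 genes have a median of -0.26 and the vacuolar proton pump one of 0.15, which was 0.05 without knockout replicate 4.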

How the data were processed

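The authors deposited log2 signals per probe set for 11 Affymetrix arrays. Per the labels' protocols, total RNA came from an Arcturus PicoPure extraction and was labelled with a WT Pico kit, made for scarce RNA. The submitters' processing notes name Partek 6.6 and RMA, which adjusts background, equalises array distributions and summarises probes, and so removes shifts common to all genes. A batch correction, a filter and the build are not given in the sources used here. No detection values were used. Of 41345 probe sets, 23521 carried 1 gene symbol, 1814 several and 16010 none.

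All probe sets were fitted with limma 3.58.1 in R 4.3.3 (lmFit, eBayes, with genotype and batch terms, two-sided tests, Benjamini-Hochberg, threshold 0.05), checked on simulated data. Plots used matplotlib 3.10.9. The number of arrays limits precision. Named were the members, the 3 genes of smallest p in each of 6 related lists (87 of 93 genes measured), and the 3 genes nearest in pattern to the 2 most variable members, predicted genes skipped. Members and lists were chosen with earlier results of these data known. Alternatives covered batch, normalization, dim probes, priors, array weights, probe choice and left-out arrays. Leaving out wild-type replicate 5 and knockout replicate 2, with or without knockout replicate 4, was chosen after seeing the data. So was their use in correlations. Same-numbered arrays did not deviate together (r from -0.12 to 0.10 over 5 numbers), so arrays were not paired by number in the main fit. These 5 values do not exclude a pairing.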

Additional observations from a re-analysis of the deposited data

Results flagged for a closer look

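A single array stood far from the rest of its group in 5 of the 30 groups examined (8 genes and 7 marker lists, each in 2 genotypes). For independent groups chance would give about 1 in 20. Here 4 of the 5 were the same array in genes that were low together, so the count cannot be set against that rate. Wild-type replicate 5 read 10.90 for Slc34a1, where the other wild-type arrays lay between 11.97 and 12.36. It read 5.20 for Slc9a3 against 7.16 to 7.59, 7.44 for Slc4a4 against 8.51 to 8.77, and 7.11 for Car4 against 8.77 to 9.10. Knockout replicate 4 had an intercalated cell marker mean of 4.69, against 3.92 to 4.01 on the other knockout arrays. Knockout replicate 2 was as low as wild-type replicate 5 or lower in these 4 genes, but its distance from the next knockout array was a smaller share of its group's range.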

How the results depend on the processing

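With limma, 0 of the 8 members passed the threshold in any setting run, the 11 fits without 1 array included. Among the refitted member values 189 kept their sign and 2 changed it, both without knockout replicate 2, where Slc34a1 was at 0.09 and Slc9a3 at 0.25. Leaving out 1 array gave -0.43 to 0.09 for Slc34a1, -0.59 to 0.25 for Slc9a3, -0.75 to -0.04 for Car4, -0.61 to -0.18 for Slc4a4 and -0.95 to -0.47 for Car2. The count of all probe sets past the threshold was 0, and 3 in batch 1 alone, 1 with 1 probe set per gene, 1 without wild-type replicate 5 and knockout replicate 2, 4 at a threshold of 0.1 and 5 at 0.2. It ran from 0 to 11 when 1 array was left out, with 11 without knockout replicate 5. No pairing by replicate number was seen, and 0 of 10 arrays correlated best with their own number. With the replicate number as a block (replicate block), 0 probe sets passed, and Slc34a1 was at -0.64, Slc9a3 at -1.04, Slc4a4 at -0.84, Car2 at -0.96 and Car4 at -1.17, with list medians of 0.03 for phosphate carriers and -0.16 for regulators. The unadjusted limma p in that fit was 0.0123 for Car2, 0.0423 for Car4 and 0.0480 for Slc4a4, each with an adjusted p of 0.998. At an unadjusted p under 0.05 it held 1936 of 41345 probe sets. Over 6 arrays of batch 1 the correlation of Slc34a3 with the S1 and S2 mean turned to 0.73 and that of Car4 with the S3 mean to -0.086. That of Slc34a3 with the S3 mean was -0.89 there, with an adjusted exact permutation p of 0.141, against -0.25 over 9 arrays. Detection was not measured, which limits what Slc34a3 and Slc20a1 can show.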

Other observations

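Of the 19 measured genes for hormone control of phosphate, 4 were lowest on the same 2 arrays as Slc34a1. Kl, the co-receptor of FGF23, read 8.12 on wild-type replicate 5 and 7.89 on knockout replicate 2, and 8.30 to 9.32 elsewhere. Pth1r, the parathyroid hormone receptor, read 7.29 and 7.51 there and 7.56 to 8.26 elsewhere, and Vdr, the vitamin D receptor, read 6.67 and 6.84 there and 6.97 to 7.50 elsewhere. Gna11, a G protein subunit, was the fourth, and the pattern was found in 3% of all genes. The other 15 were not lowest on both, among them the FGF23 receptor genes Fgfr1, at 6.94 and 6.84 there, and Fgfr4, at 6.67 and 7.15. Slc9a3r1 (NHERF1) was not low on them, at 7.31 and 7.48. These genes were singled out after their values were seen.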
